A study of Arabidopsis thaliana with 9 samples.

Results

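Pistils that had received pollen of a myb triple mutant were compared with pistils that had received wild-type pollen, over all probe sets of a gene expression array. The 6 arrays of this comparison, of 9 in the series, were chosen by their titles: 3 of ms1 pistils 8 h after pollination with myb triple mutant pollen, and 3 of ms1 pistils 8 h after pollination with wild-type pollen. The mutant pollen was of the Col-0 ecotype and carried the alleles myb97-1, myb101-4 and myb120-3, and the wild-type pollen was Col-0 without them. The other 3 arrays were of ms1 pistils collected without pollination at stage 14. All pistils, in every group, came from Arabidopsis thaliana plants with the ms1 (male sterile 1) mutation in the Ler-0 ecotype, so the female tissue was the same and the pollen differed. Each collection held 100 pistils. Because whole pistils were measured, each value sums pollen tubes and pistil tissue, and fewer pollen tubes in a pistil and less RNA per tube cannot be told apart.

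A pollen tube grows from a pollen grain on the stigma through the transmitting tissue of the style and ovary, and delivers sperm to an ovule. Tube growth needs sugar uptake, continued secretion of wall material rich in pectin, and remodelling of that wall and of the surrounding pistil wall. The mutated genes MYB97, MYB101 and MYB120 belong to the GAMYB-like class of transcription factors and act in pollen tubes after they have entered the pistil, and tubes that lack all of them are known to reach ovules but often fail to burst and release sperm. The comparison addresses which of the transcripts present 8 h after pollination depend on these factors. Their own transcripts, and those of their closest relatives, could not be checked here: 0 of the 8 genes on that list had a probe set assigned to them alone, so the mutant label rests on the titles.

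The 9 arrays each gave an intensity for 22746 probe sets once 64 control probe sets had been left out. Median intensities were 109.9 to 114.6 with mutant pollen, 112.2 to 117 with wild-type pollen and 103.3 to 104.7 in unpollinated pistils. The median SD of a probe set's log2 intensity over 3 arrays was 0.100 with mutant pollen, 0.0933 with wild-type pollen and 0.118 without pollination. The mutant arrays were less alike than the wild-type ones. Their mean Pearson correlation with the other mutant arrays was 0.9954 for replicate 1, 0.9960 for replicate 2 and 0.9963 for replicate 3, so replicate 1 was the least like its group. Mutant replicate 2 was more like the wild-type arrays, at a mean of 0.9967, and its correlation of 0.9975 with wild-type replicate 1 was the highest of the 15 pairs of pollinated arrays. These correlations run over probe sets within arrays and carry no test. All arrays were kept, and values without replicate 1 or 2 are given where they bear on a result.

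Few probe sets differed between the pollen genotypes, and nearly all of those were lower with mutant pollen. At a Benjamini-Hochberg adjusted p under 0.05 in a limma fit of log2 intensities, 71 probe sets were called, which is 0.312% of the 22746 tested. Of these, 65 fell with mutant pollen (0.286%) and 6 rose (0.0264%). At an unadjusted p under 0.05 there were 1090 probe sets (4.79%), 605 lower (2.66%) and 485 higher (2.13%) with mutant pollen. Each of the 71 had no overlap between the 3 mutant and the 3 wild-type arrays, as had 2266 of all probe sets (9.96%), 1189 lower (5.23%) and 1077 higher (4.73%) with mutant pollen. Leaving out mutant replicate 2 gave 68 calls, of which 56 were among the 71. The count was more sensitive to other arrays, with 37 calls without mutant replicate 1, 35 without mutant replicate 3, 42 without wild-type replicate 1 and 38 without wild-type replicate 2. The calls lower with mutant pollen alone numbered 33, 32, 39, 33 and 42 without mutant replicate 1, mutant replicate 3, wild-type replicate 1, wild-type replicate 2 and wild-type replicate 3.

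**Figure D1:**
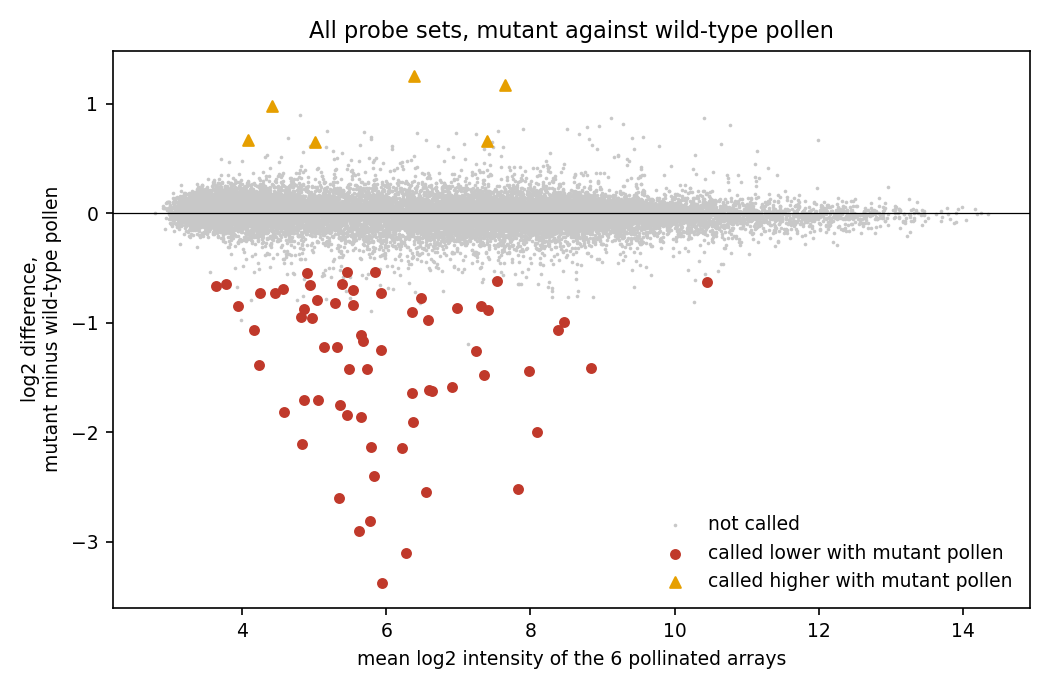
Difference in log2 intensity, mutant minus wild-type pollen (vertical axis), against the mean log2 intensity of the 6 pollinated arrays (horizontal axis), with a point for each of the 22746 probe sets. The 65 probe sets called lower with mutant pollen reach -3.37, whereas the 6 called higher end at 1.25.

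The falls called lay in the tail of all differences, which their choice by these same differences made likely. Falls called ran from -3.37 to -0.53 on the log2 scale, with a median of -1.22, and the rises called ran from 0.65 to 1.25, with a median of 0.82. Over all probe sets the 1st percentile of the difference was -0.40 and the 99th was 0.32. A difference of at least 1 in size was seen for 40 probe sets, 39 of them called, 37 lower and 2 higher with mutant pollen. Of the 65, 11 had fallen by 2 or more.

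The median log2 level of the 65 probe sets that fell was 5.02 with mutant pollen, 6.45 with wild-type pollen and 3.97 in unpollinated pistils. The unpollinated level ran from 3.23 to 7.92, the highest being that of the transcription factor gene HAT2, so the signal without pollination was not low for all 65. Set against unpollinated pistils, the median difference over the 65 was 0.58 for mutant pollen, with a range from -0.79 to 6.18, and 2.06 for wild-type pollen, with a range from -0.25 to 6.81. The medians over all probe sets were 0.01 for mutant pollen and 0.00 for wild-type pollen. These comparisons share the unpollinated arrays, and the wild-type arrays also entered the choice of the 65, so they describe where these transcripts lie and test nothing. In the same fit, 41.5% of all probe sets were called between mutant pollen and unpollinated pistils (22.3% higher and 19.2% lower with mutant pollen) and 43.6% between wild-type pollen and unpollinated pistils (23.4% higher and 20.2% lower with wild-type pollen).

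The platform annotation lists exactly 1 gene for 31 of the 71 called probe sets, 26 lower and 5 higher with mutant pollen, and these are the ones named. Another 10 list several genes, 9 lower and 1 higher, and 30 list none, all of them lower. None of the 31 genes had a further probe set of its own on the array, so each gene rests on 1 probe set.

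**Figure D2:**
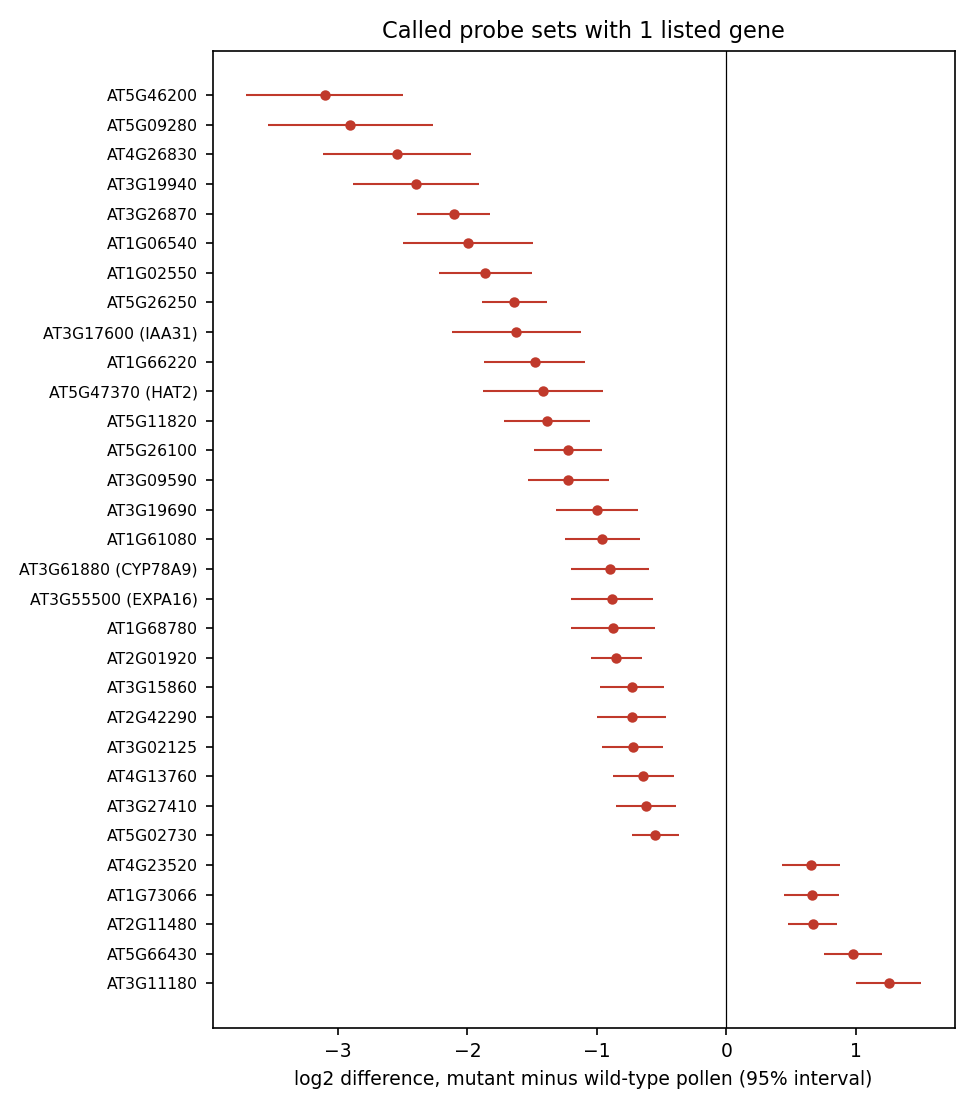
Log2 difference, mutant minus wild-type pollen (horizontal axis), with its 95% interval from the limma fit, for the 31 called probe sets with 1 listed gene. The 26 genes that fell lie left of 0 and the 5 that rose right of it, from AT5G46200 at -3.10 to AT3G11180 at 1.25.

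Among genes of sugar transport, 2 hexose carriers of the STP family fell and the others did not pass the test. AT3G19940 (STP10), a hexose and proton symporter known from growing pollen tubes, had intensities of 23.6, 31.6 and 20.4 with mutant pollen, against 114.6, 188.7 and 102.5 with wild-type pollen and 16.1, 16.9 and 19.2 without pollination. Every mutant array was below every wild-type array and close to the unpollinated ones. The difference between mutant and wild-type pollen was -2.40 ± 0.22 on the log2 scale (SE, n = 3 each), 5.26-fold lower, with an adjusted p of 0.001. AT5G26250 (STP8), another member of the family, had 49.9, 44.9 and 44.6 with mutant pollen, against 135.3, 155.4 and 143 with wild-type pollen and 51.3, 48.8 and 38.1 without pollination. Its mutant values lay inside the unpollinated range, and mutant replicate 2 did not stand out. STP8 fell by 1.64 ± 0.11 (adjusted p = 0.000157). The list of sugar carriers and cell wall invertases held 52 genes, of which 23 were measured, with 2 lower and 0 higher, where 0.286% of all probe sets were called lower. That list was written with earlier results of these data known, so its count of calls is no test of the list. Its median difference was -0.06, beside -1.1e-05 over all probe sets. Its other measured members included SWEET10, a sugar exporter, whose difference was 0.36 with a 95% interval from 0.12 to 0.61 and an adjusted p of 0.602.

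Among genes of the pollen wall and of pectin, 3 of 24 measured members fell and 0 rose, of 42 on the list. Over all probe sets, 0.286% were called lower. The list was written with earlier results of these data known, so its count of calls is no test of the list. AT5G09280, which encodes a pectin lyase-like protein, had 14.4, 31.8 and 12.7 with mutant pollen, against 154.3, 142 and 111.4 with wild-type pollen and 14.9, 12 and 13.3 without pollination. Mutant replicates 1 and 3 were at the unpollinated level and replicate 2 was above it. The difference was -2.90 ± 0.29 (7.49-fold lower, adjusted p = 0.00144). AT4G26830, of glycosyl hydrolase family 17, which cleaves beta-glucans such as callose, had 31.1, 61.4 and 30.7 with mutant pollen, against 209.4, 294.1 and 188.7 with wild-type pollen and 11.5, 14.8 and 14.2 without pollination. Here all mutant arrays were above the unpollinated ones. The difference was -2.54 ± 0.26 (5.83-fold lower, adjusted p = 0.00172). AT4G26830 lies on chromosome 4 near the mutated MYB97 (AT4G26930), with 9 protein-coding genes between them, and the part of that closeness in the difference was not tested. AT1G02550, whose family holds inhibitors of invertase and of pectin methylesterase, had 22, 33.1 and 25.1 with mutant pollen, against 95, 117 and 79.3 with wild-type pollen and 25.3, 26.4 and 27.1 without pollination. Its mean with mutant pollen equalled the unpollinated one to within 0.005 on the log2 scale, and it fell by 1.86 ± 0.16 against wild-type pollen (adjusted p = 0.000776).

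The rest of the wall list was not called. At an unadjusted p under 0.05, 4 of the 24 measured members were lower, the 3 called ones among them, and 2 were higher. The shares over all probe sets were 2.66% and 2.13%. The median over the list's 24 measured members was -0.12. Among its pectin enzymes with an interval that includes 0, the differences were 0.03 (95% interval -0.39 to 0.45) for the polygalacturonase AT3G07820, -0.00 (-0.22 to 0.22) for the pectin methylesterase AT5G07430 and -0.16 (-0.48 to 0.15) for the pectate lyase AT3G01270. LAT52 (AT5G45880), a secreted pollen protein, had 4420.5, 5404.7 and 5184.5 with mutant pollen, against 4973.3, 5634.2 and 5914.3 with wild-type pollen, a difference of -0.14 (-0.43 to 0.15). The pectin methylesterase AT3G06830 had the highest difference on the list, at 0.56 (0.25 to 0.87), with an adjusted p of 0.317. A second pectin lyase-like gene that was on no list, AT4G13760, was called at 11.6, 10.2 and 11.2 with mutant pollen, against 15.5, 20.1 and 16.2 with wild-type pollen. It fell by 0.64 ± 0.11 (adjusted p = 0.0386), and it lost its call without any of the 6 arrays, at an adjusted p of 0.0604 to 0.179.

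EXPA16 (AT3G55500), an expansin, was the only called member of its family. Expansins loosen cell walls. Of 31, 14 were measured, with 1 lower, 0 higher and a median of -0.06, where 0.286% of all probe sets were called lower. EXPA16 had 131.6, 131.6 and 114.6 with mutant pollen, against 205.1, 274.4 and 221.3 with wild-type pollen and 43.1, 41.6 and 31.1 without pollination. It fell by 0.88 ± 0.14 (adjusted p = 0.0341) and kept a level above the unpollinated one, but no call was made without any of the 6 arrays in turn, at an adjusted p of 0.0620 to 0.198. The next expansin, EXPA4, had 1209.3, 879.2 and 968.8 with mutant pollen, against 1408.6, 1552.1 and 1686.7 with wild-type pollen. The groups did not overlap, yet its difference of -0.61 (-0.92 to -0.30) had an adjusted p of 0.205.

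Secreted proteins of the CAP family, relatives of the defence protein PR-1, gave 3 of 19 measured members lower and 0 higher, of 22 listed, with a median of -0.05, where 0.286% of all probe sets were called lower. This list was written after the values were seen. AT3G09590 had 28.4, 21 and 20.4 with mutant pollen, against 54.2, 60.1 and 47.2 with wild-type pollen and 20, 17.4 and 21.3 without pollination, and it fell by 1.22 ± 0.14 (adjusted p = 0.00397). AT3G19690 had 230.7, 284 and 238.9 with mutant pollen, against 436.5, 564.2 and 505 with wild-type pollen and 17.8, 23.8 and 24.6 without pollination. It remained far above unpollinated pistils, by 3.52 with mutant pollen and 4.51 with wild-type pollen. It fell by 1.00 ± 0.14 with an adjusted p of 0.016, and of 0.101, 0.108, 0.106 and 0.0896 without mutant replicate 1, mutant replicate 3, wild-type replicate 2 and wild-type replicate 3. AT5G02730, which was named after its values were seen, had 26, 24.6 and 23.8 with mutant pollen, against 33.1, 39.4 and 36.5 with wild-type pollen. It fell by 0.55 ± 0.08 (adjusted p = 0.0225), and wild-type replicate 1 was the single array whose loss left the call in place. Without any other array its adjusted p was 0.0689 to 0.147.

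AT3G26870, AT1G66220 and AT1G61080 were named by the size of their fall and belong to no list. AT3G26870, of the S1 self-incompatibility protein family, whose founding members act as stigma proteins in poppy, had 12, 16 and 13.4 with mutant pollen, against 60.1, 67.6 and 50.6 with wild-type pollen and 9.6, 9.8 and 8.8 without pollination. It had the smallest adjusted p of any called probe set with 1 listed gene, 6.07e-05, at a difference of -2.11 ± 0.13 (4.31-fold lower). The next protein-coding gene, AT3G26880, of the same family and named after its values were seen, had 76.6, 131.6 and 79.3 with mutant pollen, against 199.5, 304.4 and 157.6 with wild-type pollen and 11.4, 9.6 and 11.4 without pollination. The groups did not overlap, but its difference of -1.19 ± 0.25 had an adjusted p of 0.137. Without mutant replicate 2 the adjusted p was 0.0394. AT1G66220, a subtilisin-like serine protease, had 74.5, 128.9 and 99 with mutant pollen, against 257.8, 298.2 and 268.7 with wild-type pollen and 12.5, 13.5 and 16.4 without pollination. It fell by 1.48 ± 0.18 (adjusted p = 0.00447). AT1G61080, of a hydroxyproline-rich glycoprotein family, had 20.4, 24.8 and 22.2 with mutant pollen, against 43.1, 53.1 and 36 with wild-type pollen. It fell by 0.96 ± 0.13 (adjusted p = 0.012), and the adjusted p was 0.0739, 0.0823 and 0.0604 without mutant replicate 1, mutant replicate 3 and wild-type replicate 1.

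**Figure D3:**
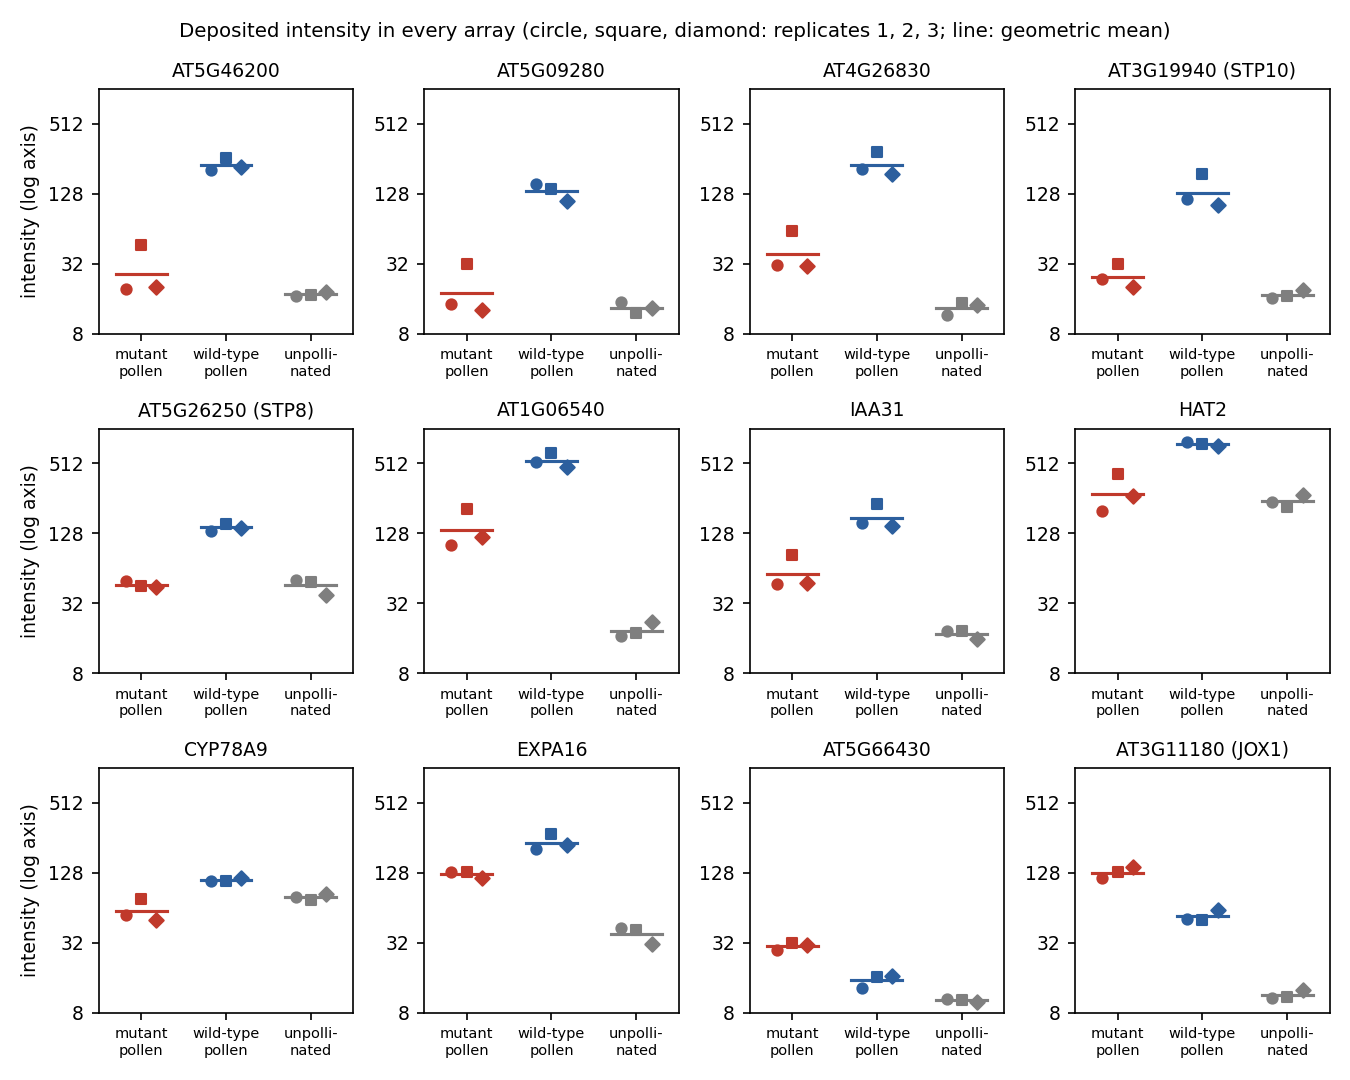
Deposited intensity on a log axis in every array for 12 genes, with circles, squares and diamonds for replicates 1, 2 and 3 and a line at each group's geometric mean. STP8, AT5G09280 and STP10 with mutant pollen lie near the unpollinated level, AT1G06540 and EXPA16 lie between the unpollinated and wild-type levels, and AT3G11180 and AT5G66430 lie above both.

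Among auxin genes, IAA31 fell. IAA31 (AT3G17600), a repressor of auxin response, had 46.5, 82.7 and 47.8 with mutant pollen, against 157.6, 229.1 and 148.1 with wild-type pollen and 18.5, 18.5 and 15.9 without pollination. All mutant arrays were above the unpollinated ones and below the wild-type ones. The difference was -1.62 ± 0.22 (adjusted p = 0.0124), with an adjusted p of 0.0742, 0.0882 and 0.0608 without mutant replicate 1, mutant replicate 3 and wild-type replicate 2. Of 41 auxin genes 13 were measured, with 1 lower, 0 higher and a median of 0.01. Over all probe sets 0.286% were called lower. The closely related IAA30 had a difference of -0.24 (-0.44 to -0.04) and was not called, and neither was GH3.3, an auxin-conjugating enzyme, at -0.09 (-0.71 to 0.53).

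HAT2 (AT5G47370), an auxin-inducible transcription factor of the HD-ZIP II class, had 200.9, 413 and 266.9 with mutant pollen, against 776, 754.8 and 719.1 with wild-type pollen and 240.5, 216.8 and 274.4 without pollination. The mutant range enclosed the unpollinated one. HAT2 was uneven among mutant arrays, with an SD of 0.52 on the log2 scale beside 0.06 among wild-type arrays. It fell by 1.42 ± 0.21 with an adjusted p of 0.0193, and of 0.125, 0.0897, 0.118 and 0.0909 without mutant replicate 3, wild-type replicate 1, wild-type replicate 2 and wild-type replicate 3. It was the only one of 10 HD-ZIP II genes measured.

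CYP78A9 (AT3G61880) is a cytochrome P450 that promotes fruit and seed growth. It was the only called one of 4 measured genes of gibberellin and fruit growth, and of 22 measured P450 genes. Over all probe sets 0.286% were called lower. CYP78A9 had 55.7, 76.6 and 50.2 with mutant pollen, against 108.4, 109.9 and 116.2 with wild-type pollen and 78.8, 74.5 and 84.4 without pollination. CYP78A9 was the one named gene with a call in opposite directions against unpollinated pistils: its difference from them was -0.40 with mutant pollen (adjusted p = 0.0354) and 0.49 with wild-type pollen (adjusted p = 0.0135), in fits that share the unpollinated arrays. Between the pollen genotypes it fell by 0.90 ± 0.14 (adjusted p = 0.0225). That call was lost without mutant replicate 1 (0.126), mutant replicate 3 (0.0997), wild-type replicate 1 (0.0849), wild-type replicate 2 (0.119) or wild-type replicate 3 (0.118), and in a fit of the 6 pollinated arrays alone (0.0527).

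The gene with the largest fall, AT5G46200, had 19.3, 46.5 and 20.4 with mutant pollen, against 206.5, 259.6 and 216.8 with wild-type pollen and 16.9, 17.3 and 18.3 without pollination. Its difference was -3.10 ± 0.27 (8.59-fold lower, adjusted p = 0.000776), and -3.51 without mutant replicate 2. AT1G06540 had 102.5, 206.5 and 119.4 with mutant pollen, against 526.4, 630.3 and 481 with wild-type pollen and 16.6, 17.9 and 21.9 without pollination. It fell by 1.99 ± 0.23 (adjusted p = 0.00373) and stayed higher than in unpollinated pistils by 2.87 with mutant pollen, against 4.86 with wild-type pollen. These genes are given without a role. Of the called probe sets with no listed gene, the one with the largest fall had 15.1, 43.7 and 10.6 with mutant pollen, against 191.3, 235.6 and 172.4 with wild-type pollen, a difference of -3.37 ± 0.40 (adjusted p = 0.00434) that was -3.97 without mutant replicate 2. The next had 67.6, 154.3 and 82.1 with mutant pollen, against 526.4, 634.7 and 484.4 with wild-type pollen, a difference of -2.52 ± 0.24 (adjusted p = 0.00137).

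AT5G11820 fell by 1.38 ± 0.15 (adjusted p = 0.00263), with 10.4, 14.4 and 10.6 with mutant pollen, against 26.9, 34.8 and 30.1 with wild-type pollen. AT5G26100 fell by 1.22 ± 0.12 (adjusted p = 0.00141), with 26.4, 29.9 and 22.6 with mutant pollen, against 55.3, 58.1 and 70.5 with wild-type pollen. With mutant pollen AT5G11820 was near its unpollinated level, at a difference of -0.10 (adjusted p = 0.622 in the same fit). AT5G26100 was above its unpollinated level by 0.41 (adjusted p = 0.0192). AT2G01920, of the ENTH and VHS domain family of vesicle adaptors, fell by 0.85 ± 0.09 (adjusted p = 0.00202), with 10.1, 12.8 and 11.6 with mutant pollen, against 20.3, 20.8 and 20.8 with wild-type pollen.

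Several of the smallest named falls lost their call when single arrays were left out. AT2G42290, a leucine-rich repeat receptor-like kinase, had 50.9, 49.5 and 41.6 with mutant pollen, against 67.6, 81 and 87.4 with wild-type pollen and 58.5, 68.1 and 70.5 without pollination. It fell by 0.73 ± 0.12 (adjusted p = 0.038), and its adjusted p was 0.0824 to 0.222 without any array other than wild-type replicate 1. AT3G27410 had 130.7, 162 and 158.7 with mutant pollen, against 218.3, 252.5 and 221.3 with wild-type pollen and 10.3, 9.5 and 10.9 without pollination, so it stood far above unpollinated pistils in both pollinated groups. It fell by 0.62 ± 0.10 (adjusted p = 0.0387, and 0.0580 to 0.229 without any of the 6 arrays). AT1G68780 fell by 0.87 ± 0.15 (adjusted p = 0.0387, and 0.0531 to 0.226 without any of the 6 arrays), AT3G15860 by 0.73 ± 0.11 (0.0233, and 0.0528 to 0.156 without any array but mutant replicate 2) and AT3G02125 by 0.72 ± 0.11 (0.0191, and 0.0567 to 0.113 without any of the 6 arrays). AT2G40310, named after its values were seen, missed the threshold at an adjusted p of 0.0827 with a difference of -0.97 ± 0.18, and had 10.8, 11 and 12.2 with mutant pollen, against 26.9, 26.2 and 15.6 with wild-type pollen. Without wild-type replicate 3, the lowest of its group, the adjusted p was 0.00213. AT3G15860 was dim, at 14.7, 19 and 17.6 with mutant pollen, against 28.6, 30.5 and 25.8 with wild-type pollen. Likewise AT3G02125 had 13.8, 15 and 15.5 with mutant pollen, against 26.7, 23.8 and 22.8 with wild-type pollen.

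Of the 6 probe sets that rose, the largest rise was that of AT3G11180 (JOX1), a jasmonate-induced oxygenase that hydroxylates and so inactivates the hormone jasmonate. AT3G11180 had 114.6, 130.7 and 143 with mutant pollen, against 51.3, 50.2 and 61.4 with wild-type pollen and 10.7, 10.9 and 12.6 without pollination. It was above unpollinated pistils by 3.5 with mutant pollen and by 2.25 with wild-type pollen. The rise was 1.25 ± 0.11 (2.38-fold, adjusted p = 0.000888). Of 36 jasmonate genes 5 were measured, with 0 lower, 1 higher and a median of 0.23. Over all probe sets 0.0264% were called higher. The relatives of JOX1 were not called, with 0.26 (-0.47 to 1.00) for JOX2. JMT, which methylates jasmonate, had -0.52 (-0.95 to -0.10) and an adjusted p of 0.929.

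AT5G66430, a methyltransferase of the SABATH family, to which JMT also belongs, had 27.5, 31.8 and 30.7 with mutant pollen, against 13.1, 16.1 and 16.6 with wild-type pollen and 10.5, 10.4 and 9.9 without pollination. It rose by 0.98 ± 0.10 (1.97-fold, adjusted p = 0.00181). Of 22 SABATH genes, a list written after the values were seen, 14 were measured, with 0 lower, 1 higher and a median of 0.04. Over all probe sets 0.0264% were called higher. AT1G73066, of a leucine-rich repeat family, had 205.1, 226 and 206.5 with mutant pollen, against 119.4, 151.2 and 134.4 with wild-type pollen and 25.6, 23.8 and 26.5 without pollination. It rose by 0.66 ± 0.10 (adjusted p = 0.0178, and 0.0709 to 0.0896 without any array but wild-type replicate 2). AT4G23520, a papain-like cysteine protease, had 40.5, 37.3 and 43.7 with mutant pollen, against 22.6, 26.4 and 28.4 with wild-type pollen and 20, 18 and 19.4 without pollination. It rose by 0.65 ± 0.10 (adjusted p = 0.0233), and the adjusted p was 0.117, 0.152, 0.0849 and 0.116 without mutant replicate 1, mutant replicate 3, wild-type replicate 1 and wild-type replicate 2. AT2G11480, a pseudogene in RefSeq, rose by 0.67 ± 0.09 (adjusted p = 0.00923, and 0.0675 and 0.0547 without mutant replicate 3 and wild-type replicate 1). AT2G11480 was dim, at 21, 20.3 and 22.8 with mutant pollen, against 13.4, 12.2 and 14.9 with wild-type pollen. Each unpollinated array gave 10.3 for it. The remaining rise, of 1.17 ± 0.13, was that of a probe set with several listed genes.

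**Figure D4:**
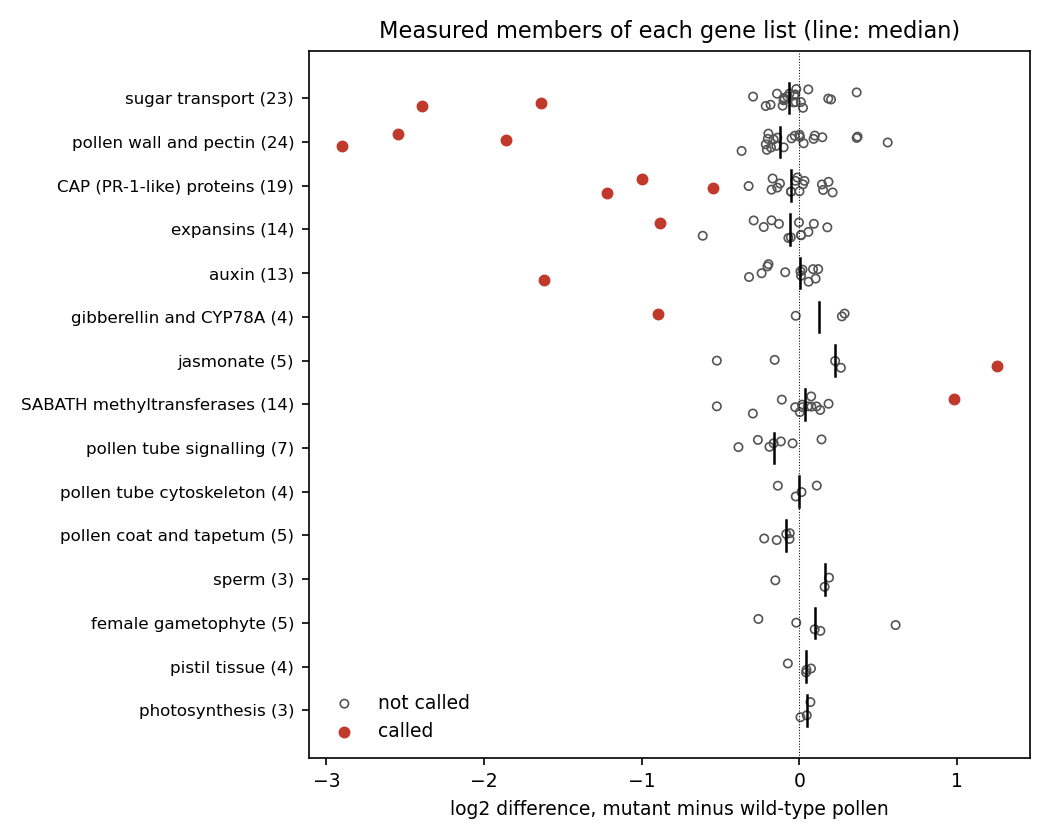
Log2 difference, mutant minus wild-type pollen, of each measured member of 15 gene lists, with the number measured in brackets, filled points for called members and a vertical line at each list's median. Called members include the lowest of the sugar transport, pollen wall and pectin, and auxin lists, and the medians lie between -0.16 and 0.23. Among expansins the called EXPA16 lies near the uncalled EXPA4.

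The lists of pollen tube signalling and pollen tube cytoskeleton genes had no called member, where 0.312% of all probe sets were called. With so few members measured, a count of 0 says little about either list. Of 36 genes of pollen tube signalling 7 were measured, with 0 called by limma and a median of -0.16. At an unadjusted p under 0.05, 2 of the 7 were lower and 0 higher, beside 2.66% and 2.13% of all probe sets. The 7 summed to an intensity of 1280.5 to 1696.2 with mutant pollen, 1580 to 1917.8 with wild-type pollen and 121.7 to 149.1 without pollination, so the pollinated groups overlapped. ANX1 and ANX2, the receptor kinases that keep a tube intact until it meets an ovule, had differences of -0.39 (-0.68 to -0.09) and -0.26 (-0.50 to -0.03). ANX1 had 86.2, 101.8 and 93.1 with mutant pollen, against 113, 114.6 and 141 with wild-type pollen, and its adjusted p was 0.82. Of 14 cytoskeleton genes 4 were measured, with 0 called, 0 at an unadjusted p under 0.05 and a median of -0.00, and their summed intensity was 1576.2 to 1961 with mutant pollen, 1544.4 to 1912.3 with wild-type pollen and 1034.3 to 1176.5 without pollination. The pollen actin ACT12 had a difference of 0.11 (-0.09 to 0.31). ACT11, of the same list, was brighter without pollination, at 982.3, 955.4 and 797.9, than with either pollen, at 436.5 to 689.8. The cytoskeleton sum therefore does not mark tubes alone.

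Other cells in the samples were followed in the same way. Of 12 sperm genes 3 were measured, with 0 called by limma, also at an unadjusted p under 0.05, and summed to 69.4 to 84.9 with mutant pollen, 71.4 to 76.5 with wild-type pollen and 53.8 to 58.8 without pollination. The sperm histone MGH3 had a difference of 0.16 (-0.07 to 0.39). TET12, of the same list, had 14.4, 12.4 and 16.7 with mutant pollen, against 11.5, 12.8 and 13.7 with wild-type pollen. Without pollination TET12 had 13.5, 14.4 and 15.8, so the sum does not mark sperm alone. Of 15 female gametophyte genes 5 were measured, with 0 called and 1 lower and 1 higher at an unadjusted p under 0.05. The shares over all probe sets were 2.66% and 2.13%. The 5 genes summed to 1625.9 to 1737.7 with mutant pollen, 1544.4 to 1775.1 with wild-type pollen and 1433.6 to 1651.2 without pollination. Most of each sum came from members other than EC1.2, which is described next. The egg cell gene EC1.2 had 37.8, 33.8 and 43.1 with mutant pollen, against 26, 22.9 and 26 with wild-type pollen, and its difference of 0.61 (0.23 to 0.99) had an adjusted p of 0.506. Of 17 pistil genes 4 were measured, with 0 called, also at an unadjusted p under 0.05, and summed to 398.2 to 416.2 with mutant pollen, 387.3 to 422.5 with wild-type pollen and 609.5 to 868.6 without pollination. INO, a gene of the ovule integument, had 159.8 to 179.8 with mutant pollen, 146 to 182.3 with wild-type pollen and 172.4 to 218.3 without pollination. The carpel gene SPT had 174.9 to 198.1 with mutant pollen, 187.4 to 205.1 with wild-type pollen and 106.2 to 128 without pollination. INO and SPT overlapped between the pollen genotypes. SPT was brighter with either pollen than without, whereas the list's sum was dimmer, so these genes do not stand for the whole list.

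The summed signal of 1 marker list, pollen coat and tapetum, did not overlap between the pollen genotypes, and this rested on 1 gene. Of 13 genes of the pollen coat and tapetum, the anther tissue that supplies the coat, 5 were measured, with 0 called by limma, also at an unadjusted p under 0.05, and summed to 1711.4 to 1864 with mutant pollen, 1977.5 to 2186.5 with wild-type pollen and 933 to 1571.9 without pollination. The 5 differences were negative, from -0.22 to -0.06, but the groups were apart for 1 of the 5, beside 9.96% of all probe sets. That gene, AT1G75900 (EXL3), a coat lipase, gave most of the sum and had 1573.8, 1618 and 1734.1 with mutant pollen, against 1845.8, 2033.9 and 1871.5 with wild-type pollen. Without pollination it had 1488.9, 1260.7 and 855.1, so its signal was not only that of delivered pollen coat. The part of these markers in the falls described above was not tested. The 3 measured photosynthesis genes summed to 13286.1 to 15012.9 with mutant pollen and 13433.3 to 14010.6 with wild-type pollen, which overlapped.

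The falls were not even across the mutant libraries. Among the 65 probe sets that fell, mutant replicate 2 was the highest of its group in 51 and the lowest in 5, mutant replicate 1 was the highest in 7 and the lowest in 38, and mutant replicate 3 was the highest in 7 and the lowest in 22. Over all 22746 probe sets, by contrast, replicates 1, 2 and 3 were the highest mutant array in 40.9%, 33.4% and 25.8%. The median of the 65 differences from the wild-type mean was -1.25 in mutant replicate 1, -1.05 in replicate 2 and -1.26 in replicate 3. The 65 were chosen by these same arrays and had no overlap between the groups, so a negative median in each was fixed by the choice. Wild-type arrays were uneven too, with wild-type replicate 2 the highest of its group in 47 of the 65, against 26.8% of all probe sets. Among the 65, the median SD over 3 arrays was 0.209 with mutant pollen and 0.186 with wild-type pollen.

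**Figure D5:**
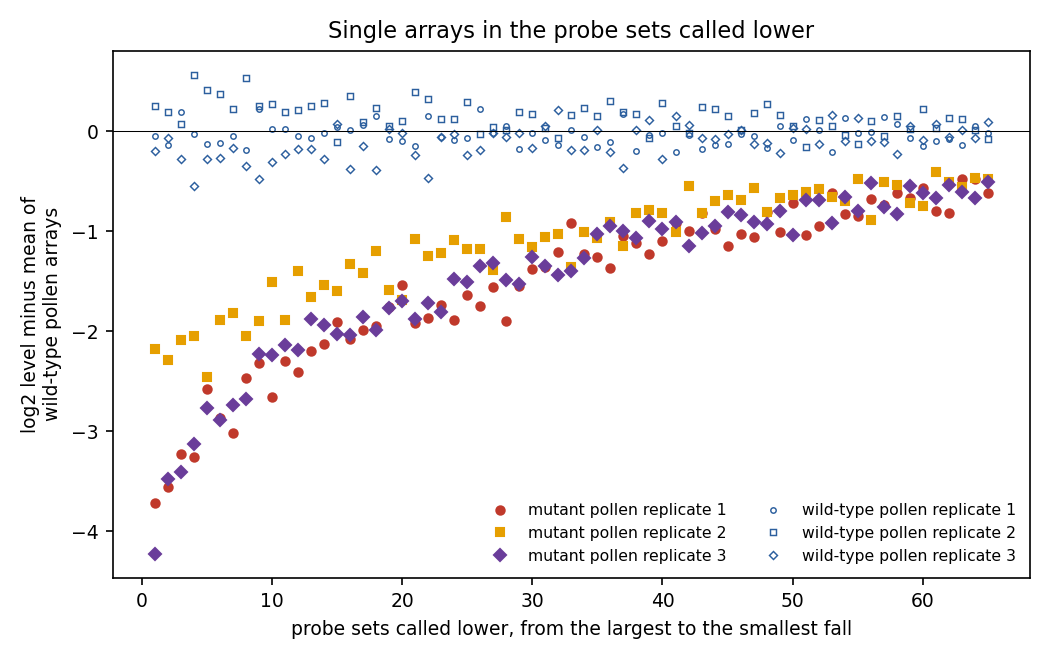
Log2 level in each array minus the mean of the 3 wild-type arrays (vertical axis) for the 65 probe sets called lower with mutant pollen, ordered from the largest to the smallest fall (horizontal axis). Mutant replicate 2 lies nearest to the wild-type arrays in most of the largest falls. Every mutant point lies below 0, as the choice of probe sets by these same arrays requires.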

How the data were processed

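The authors deposited 1 table of array intensity per probe set for 9 arrays. Partek, RMA and the Affymetrix Expression Console are named, with no version, in the submitters' processing notes. Per the labels' protocols 100 ng of total RNA was amplified and labelled with a 3' IVT kit. The deposited intensities were linear although log2 values had been assumed in the design, so log2 was taken before each fit. No detection calls were used, so a dim probe set is not called absent. Groups came from the sample titles. Replicates are titled as biological; nothing says whether collections came from separate plants, so p-values measure the spread between these collections.

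A limma model (version 3.58.1, R 4.3.3) gave each group its mean over all 9 arrays (6 residual and 4.24 prior degrees of freedom), and p-values were adjusted by Benjamini-Hochberg over 22746 probe sets. Standard errors pool the spread of all groups, and intervals are at 95%. On simulated data with 200 changed probe sets, this comparison recovered 65.7% of log2 changes of 0.5 and 100% of changes of 1 and 2, with 8 false calls. The simulated noise was normal, independent and equal in spread across groups, without array effects. These shares may therefore overstate recovery in the measured arrays, which were uneven. Genes were named where the platform annotation lists exactly 1 (13513 probe sets, 13436 matched to loci of the TAIR10.1 assembly). Named were the 25 lowest and 15 highest called genes, up to 4 called or 2 uncalled members of each list, and the 2 lowest and 2 highest called probe sets without a gene; other list members are given as values. The members and lists were chosen with earlier results of these data known, and the CAP, HD-ZIP II and SABATH lists after values were seen. A list's count of calls is therefore a description and no test. The alternatives were the pollinated arrays alone, a replicate block, subtracted medians, renewed quantile normalization, a trended and robust fit, a filter that kept probe sets with a mean log2 level of at least 6 in either pollinated group, log2(value + 16), and each of the 6 arrays left out. Promoter motifs were not analysed here. Replicate numbers were not taken as pairs, because the labels do not say that a number marks a shared batch. Same-numbered mutant and wild-type arrays had correlated deviations of 0.150, -0.104 and 0.313. Those of unlike-numbered arrays ran from -0.371 to 0.167, so a shared batch was neither shown nor excluded.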

Additional observations from a re-analysis of the deposited data

How the results depend on the processing

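The count of 71 called probe sets stayed within 1.5 times under 8 of the 13 alternatives and moved further under 4 of the left-out arrays and under the filter on dim probe sets, which tested 13507 and called 41 (38 lower and 3 higher with mutant pollen) and left out 28 of the 71. That filter keeps a probe set through the group where it is high, so its split between lower and higher is no support for the direction. Leaving out single arrays gave 35 to 68 calls, 32 to 62 lower and 3 to 7 higher. The 6 pollinated arrays alone gave 11 calls higher, against 6. With the replicate number as a block, which the labels do not name as a batch, 67 probe sets were called, 60 of them among the 71. Apart from the dim filter, 33 of the 71 were called under every alternative, 30 of them lower, and 17 of 33 named called features kept every call. Apart from left-out arrays, 8 named genes (CYP78A9, AT1G68780, AT3G15860, AT2G42290, AT4G13760, AT3G27410, AT5G02730 and AT4G23520) lost the call under at least 1 setting, at an adjusted p of 0.0507 to 0.156. Over the left-out arrays, 4 uncalled genes changed sign: ACT11 (AT3G12110) ran from -0.33 to 0.018, THI2.2 (AT5G36910) from -0.0071 to 0.107, LHCB4.1 (AT5G01530) from -0.0083 to 0.122 and AT1G12010 from -0.0073 to 0.239, with the sign turned without wild-type replicate 1, 1, 3 and 2 in that order. The cause was not tested. Rescaling moved the median difference of all probe sets by at most 0.0268. With 3 arrays a group, their number limits the precision of each value.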

Other observations

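Several gene families outside the lists above had no called member between the pollen genotypes. Of 51 measured UGT glycosyltransferases (64 listed), 29 SCPL carboxypeptidase-like genes (51 listed), 12 LCR cysteine-rich peptides (85 listed), 10 RALF peptide genes (34 listed), 10 XTH wall enzymes (33 listed), 7 WRKY factors (71 listed) and 6 CHX cation exchangers (26 listed), 0 were called by limma in either direction. At an unadjusted p under 0.05, 1 UGT gene was lower and 1 higher with mutant pollen, 1 SCPL gene was lower, 1 LCR gene was lower, 1 RALF gene was lower and 1 higher, 3 CHX genes were lower, and 0 XTH and 0 WRKY genes passed. Over all probe sets 0.312% were called, and at that unadjusted p 2.66% were lower and 2.13% higher. The cation exchanger CHX19 had 38.9, 55.3 and 36.3 with mutant pollen, against 69.1, 62.2 and 61.8 with wild-type pollen, a difference of -0.59 with an adjusted p of 0.611. RALFL25, which encodes a RALF signalling peptide and had 12.4, 12.6 and 11.6 without pollination, had 580, 621.7 and 613.1 with mutant pollen, against 501.5, 404.5 and 548.7 with wild-type pollen. Its difference of 0.33 had a 95% interval from 0.09 to 0.57 and an adjusted p of 0.697. The carboxypeptidase-like gene scpl38 (AT2G05850) had 1082.4, 1323.4 and 1168.1 with mutant pollen, against 1360.6, 1520.2 and 1478.6 with wild-type pollen, at an adjusted p of 0.742.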
